A study of Mus musculus
Mus spretus with 18 samples.

Results

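Voltage-gated calcium channel genes were taken as 9 genes by symbol, in the table of expression values and in the tables of skipped-exon (SE) events. They are Cacna1a, Cacna1b, Cacna1c, Cacna1d and Cacna1e, which encode pore-forming α1 subunits, Cacnb1, Cacnb2 and Cacnb4, which encode cytoplasmic β subunits, and Cacna2d1, which encodes an α2δ subunit. The expression table holds 38924 genes. The genes held 117 of the 97090 SE events on autosomes, and these events concerned 99 distinct exons of 72859. Events that shared one exon were read through the event with the most junction reads, so that each exon was counted once.

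A voltage-gated calcium channel opens when the membrane depolarizes and lets calcium into the cell. The α1 subunit forms the pore and senses voltage, while β and α2δ subunits bind to it and change how many channels reach the membrane and how they gate. In neurons the P/Q-type channel (Cacna1a) and the N-type channel (Cacna1b) trigger transmitter release, and in heart muscle the L-type channel (Cacna1c) carries the current that starts contraction. Alternative exons, some of them used in place of one another, are known in several of these genes.

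RNA-seq libraries came from F1 hybrid mice, the offspring of a female C57BL/6J mouse (a laboratory strain) and a male SPRET/EiJ mouse (an inbred strain of another species, Mus spretus), so every cell carried one allele of each strain. Cerebral cortex, heart, kidney, lung, spleen and liver were taken at an age of 8 weeks, and embryonic stem cells (ESC) were cultured, with 2 libraries for each of the 7 tissues. The organ donors were female. The organs came from the same 2 animals, so libraries of different organs share donors, and the sources used here do not say which replicate number marks which animal. The ESC libraries were from independent clones. The liver libraries carry the strain names C57BL/7J x SPRET/EiJ and C57BL/8J x SPRET/EiJ, while all others carry C57BL/6J x SPRET/EiJ. The authors took the liver data from their earlier study of the same animals. Study and tissue therefore cannot be told apart where liver is compared with another tissue. Fibroblasts of the same cross were treated for 4 h with 0.1 µM pladienolide B, an inhibitor of the spliceosome component SF3B, or with DMSO, the solvent, with 2 libraries each. No allele other than those of the strains was introduced in any group. With 2 libraries in a group, every p-value rests on the spread between replicate libraries, drawn toward that of all genes or events tested. For TPM this spread was taken over all 7 tissues. Reads of heart, kidney and cortex were longer than those of spleen, lung and ESC before the authors trimmed them to one length, so this difference and the tissue cannot be told apart where cortex, heart or kidney is compared with lung, spleen or ESC.

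Gene levels are given in TPM, which is scaled for the length of the transcripts and the size of the library. Junction reads summed over all SE events ranged from 46558287 to 129496306 in the 14 tissue libraries, with the fewest in cortex. Defining markers of each organ were abundant in it. The 5 cardiomyocyte markers summed to 54051 and 54132 TPM in heart and also to 1073 and 855 TPM in lung, where none of the 5 was below 1 TPM. The 5 neuronal markers summed to 2731 and 2990 TPM in cortex, and 4 of them were below 1 TPM in heart. The other, Slc17a7, was at 49.8 and 37 TPM in heart. The 3 smooth muscle markers summed to 680 and 647 TPM in lung, 524 and 347 in spleen, 203 and 203 in heart, and 112 and 146 in kidney. Their part in the levels and exon inclusion below was not tested.

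The α1 genes split by tissue. Cacna1e, which encodes the R-type channel, was at 91.8 and 104 TPM in cortex and at 0.175 and 0.22 TPM in heart. Cacna1a was at 57.4 and 63.3 TPM in cortex against 2.49 and 2.41 TPM in heart. Cacna1b was at 56.8 and 62.2 TPM in cortex against 0.0254 and 0.0405 TPM in heart. Both cortex libraries lay far above both heart libraries for these 3 genes, and no values overlapped.

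Cacna1c had the opposite order, with 77.5 and 79.6 TPM in heart, 34.8 and 38.5 TPM in cortex and 8.76 and 9.91 TPM in lung. Heart was thus 2.14 times as high as cortex, and Cacna1c was the only one of the 9 genes whose highest tissue was not cortex. Cacna1d, which encodes another L-type channel, was at 30.7 and 30.3 TPM in cortex, 12.6 and 12 TPM in lung, and 0.918 and 0.96 TPM in heart. After their highest tissue, Cacna1c was next highest in cortex and Cacna1d in lung, and the libraries of these tissues did not overlap.

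Among the β subunits, Cacnb4 was at 122 and 125 TPM in cortex and at 0.206 and 0.218 TPM in heart. Cacnb1, known as the β subunit of skeletal muscle and also used in the brain, was at 76.3 and 86.6 TPM in cortex, 18.3 and 12.6 TPM in spleen, and 4.33 and 4.25 TPM in heart. Cacnb2, the main β subunit of the heart, was at 21.3 and 23 TPM in cortex and at 18.8 and 18.1 TPM in heart. It was the only β subunit whose levels in cortex and heart were close. Cacna2d1 was the highest of the 9 genes in cortex, with 134 and 138 TPM, and reached 26.1 and 31.3 TPM in heart. In bulk tissue, fewer cells of a type and less RNA per cell cannot be told apart.

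**Figure D1:**
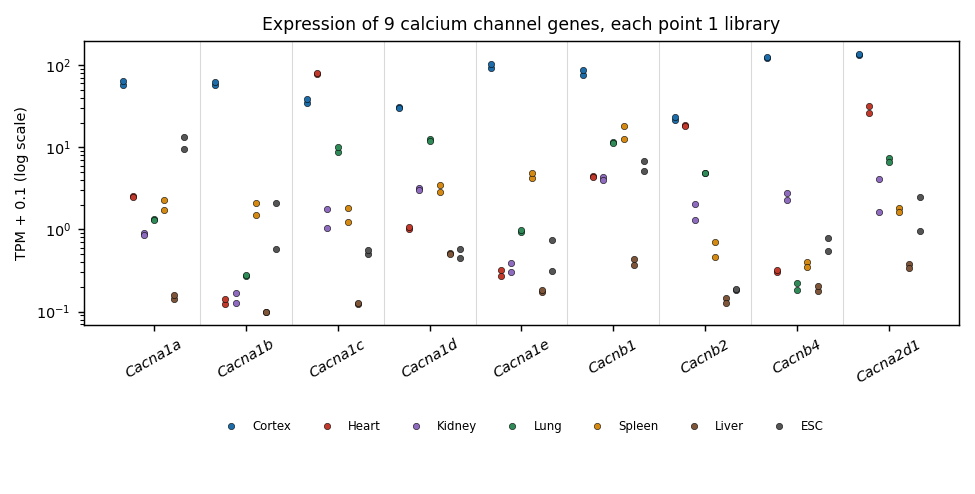
TPM of the 9 genes in the 14 tissue libraries on a logarithmic axis, with 0.1 added so that values of 0 can be drawn, and each point is 1 library. Cortex was highest for 8 genes and heart for Cacna1c, and liver had the lowest mean for every gene. Its libraries overlapped with those of ESC for Cacna1d and of lung for Cacnb4.

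On the log2(TPM + 0.1) scale, 58.7% of the 21925 genes tested differed between cortex and heart by at least 2-fold with an adjusted p under 0.05 (limma with Benjamini-Hochberg adjustment), and 44.6% were higher in cortex. Of the 9 channel genes, 7 were higher in cortex, Cacna1c was higher in heart, and Cacnb2 did not pass. The log2 difference, cortex minus heart, was 8.36 (SE 0.34) for Cacna1e, 8.81 (SE 0.48) for Cacna1b and 8.63 (SE 0.22) for Cacnb4, and it was −1.10 (SE 0.26, adjusted p = 0.00302, limma) for Cacna1c. Cacna2d1 had a log2 difference of 2.25 (SE 0.46, adjusted p = 0.0013, limma). The median over the 9 genes was 4.57, against 0.81 over all genes tested. Cacnb2 differed by 0.26 (SE 0.25, adjusted p = 0.374, limma), but after quantile normalization, which moved the median of all genes to −0.15, it turned to −0.78 with an adjusted p of 0.0122. The other 8 genes kept their direction and their call under that scaling.

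Levels outside cortex and heart set the genes further apart. All 9 differed among the 7 tissues, where 98.9% of all genes did. Cacna1a was second highest in ESC, at 13.4 and 9.38 TPM. Cacnb1 was second highest in spleen, and so were Cacna1e with 4.13 and 4.78 TPM and Cacna1b with 2.02 and 1.39 TPM, although Cacna1b overlapped there with ESC at 2.01 and 0.479 TPM. Cacnb4 was second highest in kidney, at 2.7 and 2.2 TPM. In the order of tissues, spleen and kidney overlapped for Cacna1c and Cacna1d, and heart and kidney for Cacnb1, Cacna1b and Cacna1e. Spleen overlapped with kidney and with ESC for Cacna2d1, and ESC with kidney for Cacna1e. Liver overlapped with ESC for Cacna1d and with lung for Cacnb4. The highest value in liver was 0.415 TPM, for Cacna1d. The Cacna2d1 level in kidney rested on libraries with 1.54 and 4 TPM, and Cacna1c differed there between 0.951 and 1.65 TPM. The hepatocyte markers Alb and Apoa1 summed to 37.8 and 68.2 TPM in the same kidney libraries, and their part in this was not tested.

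Further genes named as channel subunits were mostly higher in cortex as well. Of 17 such genes 15 were tested and 12 were higher in cortex, where 44.6% of all genes tested were. These 12 include Cacng2, Cacng3, Cacng4, Cacng5, Cacng7 and Cacng8, which were listed by name, and their part in these channels was not tested. Cacna1s was higher in heart, and Cacna1h and Cacng6 did not pass. The median log2 difference was 5.44 over the list. Cacnb3, a further β subunit, was at 182 and 192 TPM in cortex and at 4.08 and 4.35 TPM in heart, so that it exceeded all 3 β genes above in cortex. The T-type gene Cacna1g reached 18.8 and 17.2 TPM in heart, against 50.3 and 55 TPM in cortex. All 7 genes of cardiac calcium handling were higher in heart, with a median of −6.67, where 3085 of the 21925 genes tested were. All 7 genes of presynaptic release were higher in cortex, with a median of 9.05, where 44.6% of all genes tested were. Among the 4 RGK genes, whose small GTPases bind β subunits and inhibit the channel, Rrad was at 439 and 405 TPM in heart against 3.92 and 3.23 TPM in cortex. Rem1 was also higher in heart, Rem2 was higher in cortex, and Gem did not pass (log2 difference −0.73, adjusted p = 0.0519, limma).

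The genes whose log2 levels followed Cacna1c most closely over the 14 libraries were Vit (Pearson r = 0.985), Fndc5 (r = 0.981) and Ppp1r12b (r = 0.978), given as a description over 7 tissues with shared libraries.

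Exon use was read from junction reads as the percent spliced in (PSI), the share of transcripts that include the exon after each form is divided by its effective length. An exon was measured in a tissue if both libraries held at least 20 reads that include or skip it. Of the 99 exons 94 were measured somewhere, with 70 in cortex, 28 in heart, 16 in ESC, 15 in lung, 14 in spleen, 13 in kidney and none in liver. Most were hardly skipped: 67 exons had a PSI above 90% in every tissue that measured them, 2 were below 10%, and 25 were neither. All 4 exons measured in Cacnb2 and 13 of 15 in Cacna2d1 belonged to the first kind, but only 1 of 5 in Cacnb1. The 5 exons that were not measured, 1 each in Cacna1a, Cacna1b, Cacna1c, Cacna2d1 and Cacnb4, had too few reads.

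The switch score of an exon is the largest difference between tissue means of PSI. It could be computed for 34 exons measured in at least 2 tissues, and 15 reached 10 percentage points and 11 reached 30. These 11 are 32.4% of the 34, while 5.45% of the 40179 such exons of all genes reached 30 points. The last inside this limit was the 20-bp exon of Cacnb4, at 0.327 as a fraction, and the first outside was the 84-bp exon of Cacna1d, at 0.272. Most switching exons were short. Their median length was 36 bp, against 90 bp in all genes with such a score, and 4 of 11 (36.4%) were micro-exons of at most 30 bp, against 12.6% in all genes. In contrast, 5 of 11 (45.5%) had a length that is a multiple of 3, against 66.8% in all genes. Each of the other 6 was a member of a pair of exons that lie between the same flanking splice sites, and in each pair the lengths were equal or differed by a multiple of 3. Of the 728 switching exons of all genes whose length is not a multiple of 3, 5.08% lay in such a pair. This property was looked for after the lengths had been seen.

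**Figure D2:**
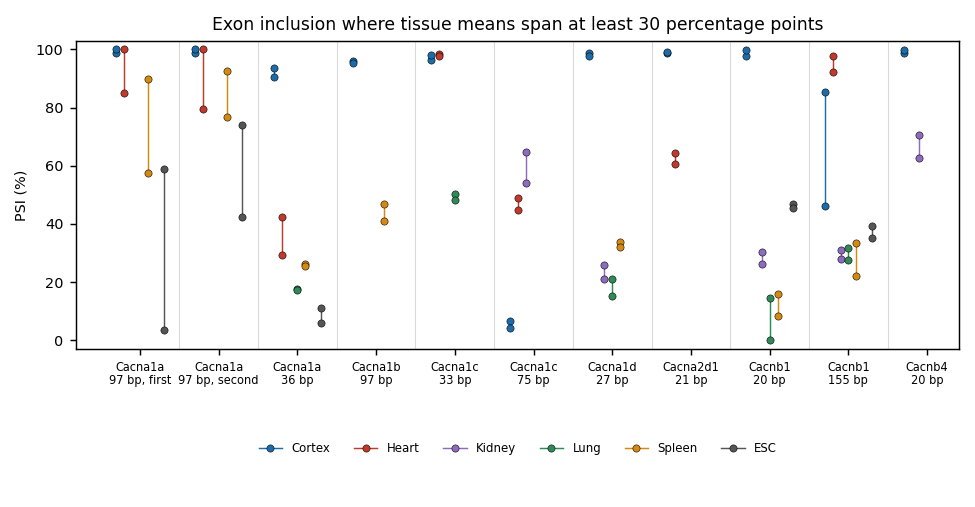
PSI in percent of the 11 exons whose tissue means span at least 30 percentage points, with 1 point per library and a line joining the 2 libraries of a tissue. Cortex lay at the upper end for most exons and at the lower end for the 75-bp exon of Cacna1c, and the wide lines in ESC and for the 155-bp exon of Cacnb1 mark libraries that differed.

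In Cacna1a, a 36-bp exon (chr8:84635549-84635584, plus strand, mm10) had a PSI of 93.6% and 90.4% in cortex. It was at 42.4% and 29.3% in heart, at 26.3% and 25.4% in spleen, at 17.6% and 17.2% in lung, and at 11% and 6.04% in ESC. Cortex stood above all other tissues and ESC below them, and no ranges overlapped. Lung held only 21 and 30 reads for this exon. The cortex against heart difference was 56.1 points (adjusted p = 2.33e-15, quasi-binomial model), and cortex against lung was 74.6 points (adjusted p = 1.04e-13). Heart against lung was 18.5 points and did not pass (adjusted p = 0.172).

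In Cacna1b, the N-type gene, a 97-bp exon (chr2:24625238-24625334, minus strand) was included at 95.9% and 95.3% in cortex and at 41% and 46.7% in spleen. Spleen held 43 and 22 reads for it. The difference of 51.8 points passed among the tissues that express it (adjusted p = 9.56e-05, quasi-binomial model). In cortex alone, a 12-bp exon (chr2:24656711-24656722) was at 90.4% and 86.3% and a 63-bp exon (chr2:24682976-24683038) at 18.4% and 15.6%.

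Cacna1c carried exons of both kinds. Its 75-bp exon (chr6:118715903-118715977, minus strand) was at 49% and 44.8% in heart, where 862 and 1255 reads covered it, and at 6.75% and 4.13% in cortex. Kidney, with 20 and 28 reads, was at 54% and 64.9%. Both heart libraries and both kidney libraries were above both cortex libraries. The cortex against heart difference was −41.5 points (adjusted p = 1.39e-47, quasi-binomial model). The smooth muscle markers given above were also higher in heart and kidney than in cortex, where they summed to 38.1 and 35.4 TPM, and their part was not tested.

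A 33-bp exon of Cacna1c (chr6:118630399-118630431) had a PSI of 96.5% and 98.1% in cortex and of 98.3% and 97.7% in heart. In lung it was at 50.3% and 48.3%, from 44 and 21 reads. Lung thus stood apart from both excitable tissues, by 48 points from cortex (adjusted p = 1.33e-07, quasi-binomial model) and by 48.7 points from heart (adjusted p = 9.39e-08). A 207-bp form that shares the 5′ end of this exon (chr6:118630225-118630431) was at 98.1% and 100% in cortex and at 92.1% and 89.2% in heart. It had too few reads in lung for the limit of 20, and with a limit of 10 reads cortex exceeded lung by 89.5 points (adjusted p = 2.67e-17, quasi-binomial model). The 33-bp and 207-bp forms overlap, and transcripts with one form do not count as skipping the other. Both can therefore have a high PSI in a tissue, and neither PSI is a share of all transcripts.

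In Cacna1d, a 27-bp micro-exon (chr14:30050234-30050260, minus strand) was at 98.9% and 97.6% in cortex. It was at 33.8% and 31.9% in spleen, at 21.1% and 25.9% in kidney, and at 21% and 15.2% in lung. Cortex stood far above the other 3 tissues, which lay within 20 points of one another. The difference between cortex and lung was 80.2 points (adjusted p = 1.93e-97, quasi-binomial model). An 84-bp exon of the same gene (chr14:30089822-30089905) was lowest in kidney, at 67.4% and 66.7%, and at 96.3% and 92.2% in cortex, but this did not pass among the tissues (adjusted p = 0.096).

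Cacna1e was measured almost only in cortex, where 3 of its 10 exons were alternative. A 90-bp exon (chr1:154488044-154488133, minus strand) was at 65.6% and 69.1%. A 57-bp exon (chr1:154473857-154473913) was at 85.9% and 89.3%, and a 12-bp exon was at 86.3% and 84% from 33 and 28 reads. These values in cortex were close between libraries, and no other tissue could be set beside them.

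The β subunit genes Cacnb1 and Cacnb4 each held a switching exon of 20 bp. That of Cacnb1 (chr11:98010627-98010646, minus strand) was at 97.8% and 99.7% in cortex and at 46.7% and 45.4% in ESC. It was at 26.2% and 30.5% in kidney, at 8.36% and 15.9% in spleen, and at 14.5% and 0% in lung. The largest difference, 91.5 points between cortex and lung (adjusted p = 1.95e-70, quasi-binomial model), was the largest switch of any exon of the 9 genes. That of Cacnb4 (chr2:52465894-52465913, minus strand) was at 98.9% and 99.8% in cortex and at 62.7% and 70.5% in kidney (32.7 points, adjusted p = 2.75e-05). A 160-bp exon of Cacnb4 (chr2:52556202-52556361) was measured in cortex alone, at 37.1% and 49.6%.

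A 155-bp exon of Cacnb1 (chr11:98011343-98011497) was at 97.7% and 92.4% in heart and between 22.2% and 39.4% in each library of kidney, lung, spleen and ESC. In cortex the libraries disagreed, with 46% from 46 reads and 85.4% from 38 reads. Heart exceeded lung by 65.4 points (adjusted p = 7.83e-14, quasi-binomial model). Cortex minus heart was −29.3 points (adjusted p = 0.00122), but this rested on cortex replicate 1, without which the difference was −9.66 (adjusted p = 0.576), and limma on log2 ratios gave an adjusted p of 0.104. Cortex exceeded lung by 36.1 points (adjusted p = 0.00371, quasi-binomial model), which was 16.4 points without cortex replicate 2 and had an adjusted p of 0.145 by limma. This PSI leaves out the reads of the 20-bp exon between the same splice sites. Set against that exon, the 155-bp exon had a share of 1.88% and 1.8% in cortex and of 73.3% and 100% in lung. By this share cortex was thus below lung, the opposite of the order by PSI.

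Cacna2d1 held 1 switching exon, a micro-exon of 21 bp (chr5:16341990-16342010, plus strand). It was at 98.7% and 99.2% in cortex and at 60.5% and 64.5% in heart. The groups did not overlap and differed by 36.4 points (adjusted p = 2.91e-37, quasi-binomial model).

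Over all exons of the 9 genes, 4 of 7 tested differed between cortex and heart by at least 10 points with an adjusted p under 0.05, where 42.1% of all events tested did. Between cortex and lung 5 of 6 differed, against 45.6%, and between heart and lung 2 of 4 differed, against 29.5%. Among all tissues that measured an exon 12 of 19 differed, against 43.5%. Exons above 90% or below 10% in every library compared were not tested. The 155-bp exon of Cacnb1 was called in each of these comparisons by a PSI that leaves out the reads of the 20-bp exon. The 12 were the 11 exons above and a 128-bp exon of Cacna1a (chr8:84612285-84612412), which was at 98.6% and 97.3% in cortex, at 71.9% and 84.8% in spleen and at 93.8% and 77.7% in ESC (adjusted p = 0.00242, quasi-binomial model, and 0.0508 by limma).

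Several of these exons are alternatives to each other, and the PSI of one then counts only the reads that skip both. The 155-bp exon of Cacnb1 in cortex, for example, was read against 17 and 3 skipping reads, while the 20-bp exon between the same splice sites had 950 and 1195 inclusion reads. For such pairs the share of one exon was therefore set against the other, with reads that join both exons counted in neither. This comparison was added after the data had been seen.

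In Cacna1c, a pair of 60-bp exons (chr6:118674346-118674405 and chr6:118674555-118674614) differed between cortex and heart. The exon nearer the 5′ end of the transcript had 10 of 510 reads and 14 of 522 reads in cortex, and 261 of 856 and 273 of 966 in heart. Its share was 1.96% and 2.68% in cortex against 30.5% and 28.3% in heart, with no overlap. The difference was 27.1 points (adjusted p = 2.7e-05, quasi-binomial model), and it passed with a replicate block (adjusted p = 0.00198). A pair of 84-bp exons of the same gene (chr6:118637730-118637813 and chr6:118638427-118638510) was nearer to equal. Its 5′ exon had a share of 19.4% and 14% in cortex and of 22% and 24.9% in heart, and the difference of 6.73 points was below the 10 points required (adjusted p = 0.0472). In lung, read between other flanking splice sites, this share was 43.1% and 37.7%, which was not tested against the others. A pair of 104-bp exons (chr6:118741871-118741974 and chr6:118742265-118742368) was measured in cortex alone, where the 5′ exon had 95.5% and 97.4%.

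**Figure D3:**
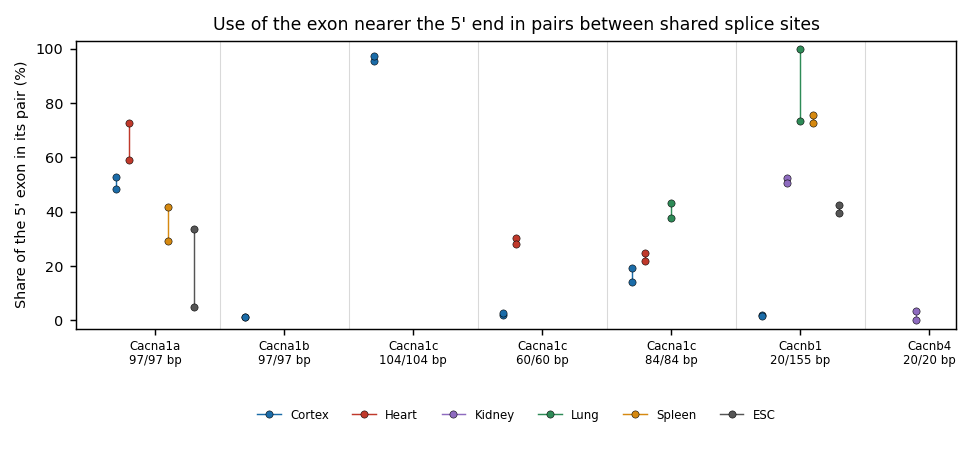
Share in percent of the exon nearer the 5′ end in pairs of exons between the same splice sites, with 1 point per library and a line joining the 2 libraries of a tissue. The 5′ exon of the 60-bp pair of Cacna1c was at most 2.68% in cortex and at least 28.3% in heart, and the lung points of the 84-bp pair use other flanking splice sites.

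In Cacna1a, the exons of a 97-bp pair (chr8:84614695-84614791 and chr8:84615574-84615670) were used about equally in cortex, where the first had a share of 52.8% and 48.5%. It was at 72.6% and 59.2% in heart, at 41.9% and 29.2% in spleen, and at 33.5% and 4.84% in ESC. The ESC clones were far apart, and their ranges overlapped with spleen but not with cortex or heart. The tissues differed by up to 46.8 points (adjusted p = 0.0285, quasi-binomial model), but the adjusted p was 0.095 by limma, 0.0584 without heart replicate 1 and 0.0545 without spleen replicate 2. Cortex against heart did not pass (−15.3 points, adjusted p = 0.0867), although it passed without cortex replicate 1 (−17.4 points), without cortex replicate 2 (−13.1 points) and without heart replicate 2 (−22 points). Taken singly, both exons had a PSI above 98% in cortex, and in ESC the first was at 58.9% and 3.61% and the second at 74% and 42.4%, the lowest means of the tissues that measured them. Without heart replicate 1, the cortex against heart difference in PSI passed for both exons, at 14.6 points for the first (adjusted p = 0.0117, quasi-binomial model) and 19.9 points for the second (adjusted p = 0.0066), and without cortex replicate 1 it passed for the second at 10.3 points (adjusted p = 0.0499).

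In Cacna1b, 1 exon of its 97-bp pair took nearly all reads. The exon nearer the 3′ end, which is the switching exon above, had 845 of 855 and 939 of 951 reads in cortex. Its partner (chr2:24626823-24626919) thus had a share of 1.17% and 1.26%, although its PSI against skipping reads was 21.7% and 20.7%.

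In Cacnb1, the 20-bp and 155-bp exons changed places between tissues. The 20-bp exon had a share of 98.1% and 98.2% in cortex, 57.5% and 60.5% in ESC, and 47.7% and 49.4% in kidney. It had 24.2% and 27.4% in spleen and 26.7% and 0% in lung. Cortex was above all other tissues, and spleen and lung overlapped at the low end. The tissues differed by up to 84.8 points (adjusted p = 6.57e-08, quasi-binomial model). In heart the 155-bp exon had 168 and 97 inclusion reads, and the 20-bp exon was not measured. The 20-bp exon of Cacnb4 had 38 of 38 and 27 of 28 reads of its pair in kidney.

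Of the pairs tested, 1 of 3 of these genes differed between cortex and heart, where 39.8% of 118 pairs of all genes did, and 3 of 4 differed among the tissues, where 46.9% did. Between the alleles, 1 pair was tested in cortex and 1 in heart, and neither passed, against 20.8% and 21.9% of all pairs. The 97-bp pair of Cacna1a differed between alleles by −1.86 points in cortex (adjusted p = 0.864, quasi-binomial model), and the 84-bp pair of Cacna1c by 5.4 points in heart (adjusted p = 0.209).

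The alleles of these genes could be told apart only where reads carried a difference between the strains. Exons with at least 20 reads per allele in both libraries numbered 37 in cortex, 10 in heart, 7 in lung, 4 in ESC, 2 in spleen, 1 in kidney and none in liver. The PSI of the alleles lay within 10 points of each other in all of them in cortex, ESC and kidney. It did so in 9 exons in heart, 5 in lung and 1 in spleen. Most of these exons were included nearly always on both alleles and were not tested. A 160-bp exon of Cacnb4 in cortex, at 24.8% and 35.8% on C57BL/6J and at 25% and 31.7% on SPRET/EiJ, was not tested either. Its PSI from allelic reads was more than 10 points below that from all reads, which was 37.1% and 49.6%.

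Of the exons tested, 0 of 6 passed in cortex, where 16.5% of all events did, 0 of 2 in heart (13.6%), 0 of 1 in kidney (20.5%), 1 of 4 in lung (16.7%), 0 of 1 in spleen (12.8%) and 0 of 1 in ESC (3.68%). These are calls of the quasi-binomial model, and limma on log2 ratios also gave none in cortex, heart, kidney, spleen and ESC. An unadjusted p under 0.05 was found for 1 exon in cortex, 1 in heart and none in kidney, spleen or ESC. Fitting both alleles of a library as a block left these counts as they were, although in ESC it raised the calls over all genes from 209 to 754 of 5674.

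The exon that passed was the 27-bp micro-exon of Cacna1d in lung. On the C57BL/6J allele 69 reads included it and 81 skipped it in replicate 1, and 35 included it and 71 skipped it in replicate 2. On the SPRET/EiJ allele 11 included and 151 skipped it in replicate 1, and 5 included and 120 skipped it in replicate 2. The PSI was thus 38.7% and 26.8% on C57BL/6J and 5.13% and 3% on SPRET/EiJ, without overlap. The difference was 28.7 points (adjusted p = 5.59e-07, and 7.28e-08 with the replicate block, quasi-binomial model).

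The same exon had fewer allelic reads in kidney and spleen. In kidney the C57BL/6J allele was at 40.3% and 31.5% and the SPRET/EiJ allele at 3.67% and 14.6%, the last from 16 reads. In spleen the C57BL/6J allele was at 46.1% and 39.2% and the SPRET/EiJ allele at 0% of 18 reads and 12.9% of 12 reads. In both tissues each C57BL/6J value was above each SPRET/EiJ value, as in lung. With a limit of 10 reads the difference was 26.7 points in kidney (adjusted p = 0.0313, quasi-binomial model) and 36.2 points in spleen (adjusted p = 0.141). In cortex, where the exon is nearly always included, the C57BL/6J allele was at 98.5% and 99.5% and the SPRET/EiJ allele at 99% and 95.2%. The allelic difference in cortex minus that in lung was −26.8 points, but 0 of 2 exons of these genes passed this test, which was added after the data had been seen and which 0.434% of all events passed, and the adjusted p of this exon was 0.784 (0.191 before adjustment, quasi-binomial model). It is therefore not shown that the allelic difference depends on the tissue. The test compares the odds of inclusion of the alleles as a ratio, not in points, so it does not test the −26.8 points themselves.

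**Figure D4:**
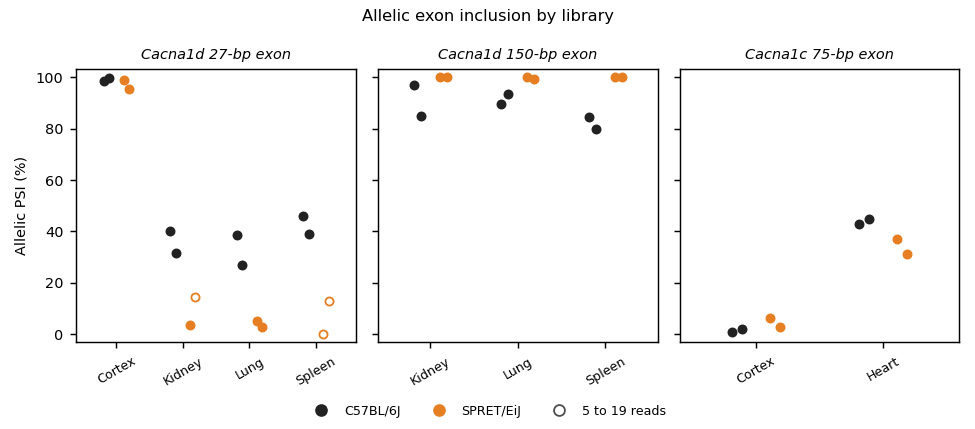
Allelic PSI in percent of 3 exons by tissue, with 1 point per library, filled where the allele had at least 20 reads. The C57BL/6J points of the 27-bp exon of Cacna1d lay above the SPRET/EiJ points in kidney, lung and spleen, those of the 150-bp exon lay below, and those of the 75-bp exon of Cacna1c lay above in heart.

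A 150-bp exon of Cacna1d (chr14:30048971-30049120) had the opposite order. In lung the C57BL/6J allele was at 89.7% and 93.6% and the SPRET/EiJ allele at 100% and 99.3%. In kidney C57BL/6J was at 97% and 84.8%, and in spleen at 84.6% and 80%, while every SPRET/EiJ value there was 100%. Each C57BL/6J library was below each SPRET/EiJ library in these 3 tissues. None was called: the lung difference of −7.96 points was below 10 (adjusted p = 0.0238, quasi-binomial model), and those of −9.11 points in kidney (adjusted p = 0.192) and −17.7 points in spleen (adjusted p = 0.295) did not pass. The 27-bp and 150-bp exons are neighbours in the same gene and were read from the same libraries.

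In Cacna1c, the 75-bp exon was at 43.1% and 44.7% on the C57BL/6J allele in heart and at 37.1% and 31.3% on the SPRET/EiJ allele. In cortex it was at 0.832% and 2.2% on C57BL/6J and at 6.36% and 2.99% on SPRET/EiJ. The C57BL/6J values were higher in heart and lower in cortex, without overlap in either. The heart difference of 9.73 points did not pass (adjusted p = 0.147, quasi-binomial model). The allelic difference in cortex minus that in heart was −12.9 points, and 0 of 2 exons of these genes passed this test, which 0.667% of all events did. On the same scale of odds, and not of points, the adjusted p of the 75-bp exon was 0.417 (0.0161 before adjustment, quasi-binomial model). The 207-bp exon of Cacna1c in heart, at 100% and 95.3% on C57BL/6J and at 85.9% and 86.8% on SPRET/EiJ, did not pass either (11.3 points, adjusted p = 0.418). In cortex the largest allelic difference of a tested exon was −7.49 points, in an 84-bp exon of Cacna1a (chr8:84594137-84594220, adjusted p = 0.0416), where 1 of the C57BL/6J libraries was at 81.4% and the other at 100%.

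In the fibroblasts few of these exons could be read. Expression was low, with Cacna1c at 5.52 and 4.7 TPM after DMSO and at 2.97 and 2.55 TPM after pladienolide B. Cacna2d1 was at 4.63 and 4.6 TPM after DMSO and at 4.79 and 5.08 TPM after the inhibitor, and Cacnb1 at 4.09 and 3.6 TPM against 0.613 and 0.879 TPM. The Cacna1c and Cacnb1 values were lower in both treated libraries, while those of Cacna2d1 were slightly higher. TPM was not tested between the treatments.

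Of 21 SE events of these genes in fibroblasts, 8 had at least 20 reads in all 4 libraries and 3 were tested. Inclusion passed for 1, the 21-bp exon of Cacna2d1, where 46.8% of all events tested passed. Its PSI was 2.72% and 0% after DMSO, and 2.53% and 22.7% after pladienolide B. The groups overlapped, and the difference of 11.3 points (adjusted p = 0.033, quasi-binomial model) rested on replicate 2 of the treated cells. By limma on log2 ratios the adjusted p was 0.179. Without DMSO replicate 2 the difference was 9.9 points (adjusted p = 0.223), and without replicate 2 of the treated cells the exon was below 10% in every library and was not tested. Of the events called over all genes, 4551 of 4645 had lower inclusion after the inhibitor. The 75-bp exon of Cacna1c was at 46.9% and 26.2% after DMSO and at 33.6% and 58.4% after pladienolide B, and the 5′ member of its 60-bp pair at 83% and 96.6% against 84.5% and 91.2%. The treated and control libraries overlapped for both, and neither passed.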

How the data were processed

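The authors trimmed reads to one length, aligned them with HISAT2 2.0.1 to the C57BL/6J genome (mm10) and a SPRET/EiJ genome, and counted junction reads of SE events with rMATS on the Ensembl annotation. The deposited junction values are read counts per event, with both replicates in a list. The effective lengths, also written by rMATS, are numbers of read positions specific to each form. The authors computed the deposited TPM from featureCounts read numbers. Deposited p-values, FDR and inclusion differences are the authors' comparisons and were not used.

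The channel genes, gene lists and tests were chosen with earlier results of these data known. Replicates were read from list positions, which no label states. Which allele comes first was checked with imprinted genes: 12 of 15 maternal and 17 of 21 paternal values were on the side of C57BL/6J first, and the exceptions were in ESC. The liver labels give other strain names and were used as F1 hybrids.

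PSI was computed from counts and effective lengths. Inclusion was tested with a quasi-binomial logistic model, with dispersions moderated by limma 3.58.1 (R 4.3.3) and not below 1, Benjamini-Hochberg adjustment over all events, a threshold of 0.05 and a difference of at least 0.1. Events with 20 or more reads per library were used, and allelic PSI had to lie within 0.1 of the PSI of all reads. TPM was tested with limma on log2(TPM + 0.1) for genes with a TPM of at least 1 in 2 libraries. Pearson residuals were more variable than binomial sampling, with a median dispersion between 2.19 and 6.52 for alleles. Both alleles of a library come from the same animal or clone and were paired (r of their deviations between 0.0906 and 0.447), so a replicate block was fitted as an alternative. Summed junction reads per allele ranged from 10338947 to 46793808. Named exons are those with a switch score of at least 0.3 or a mean PSI between 0.1 and 0.9 in cortex or heart, and further named exons were chosen after their values were seen. The models were tested on simulated data. Python 3.11.15 with pandas 2.3.3 and numpy 2.4.6 was used.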

Additional observations from a re-analysis of the deposited data

How the results depend on the processing

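The call counts of the channel genes moved with the read minimum and with single libraries. With 50 or more reads the exons called fell from 4 to 2 between cortex and heart, from 5 to 2 between cortex and lung, and from 2 to 1 between heart and lung, where 10 or more reads gave 4, as fewer or more exons could be tested. With 10 or more reads 1 allelic exon was called in kidney. For pladienolide B the single call became 0 with 50 or more reads, with limma on log2 ratios and with events near 0 or 1 kept.

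With 1 library left out at a time, the calls ranged from 4 to 7 between cortex and heart, from 4 to 7 between cortex and lung, from 2 to 3 between heart and lung, from 12 to 13 among tissues and from 0 to 2 for pladienolide B. Calls of exon pairs ranged from 1 to 2 between cortex and heart and from 2 to 3 among tissues, and the TPM counts stayed at 8 and 9. For alleles this leaves a value without a test.

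Under quantile normalization Cacnb2 turned to −0.78 between cortex and heart. For pladienolide B, the difference of the 60-bp exon of Cacna1c ranged from −8.78 to 4.88 points with 1 library left out, turning to 1.42 without treated replicate 1 and to 4.88 without DMSO replicate 2. That of the 75-bp exon ranged from −2.96 to 21.8 points, turning to −2.96 without treated replicate 2 and to −0.933 without DMSO replicate 2. The cause was not tested. The replicate block changed no count of calls of these genes (4 between cortex and heart and 1 for alleles in lung). The organs share 2 donors, but deviations of same-numbered libraries of different organs had r between −0.024 and 0.0613, so a pairing by number was not shown, and in fibroblasts r was 0.00568. Of the single values under an alternative, 889 kept direction and side of the threshold, 11 lost their call, 8 gained one, 4 moved and 5 reversed. Of the counts of calls, 194 stayed within 1.5 times the count reported and 15 did not. No exon of these genes had enough reads in liver for a PSI, and in kidney 1 had 20 reads per allele.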

Other observations

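The share of allelic inclusion reads that came from the C57BL/6J allele was read where a gene had at least 100 such reads. In cortex it lay between 43.9% and 52.9% as a mean of the libraries for 7 genes, and 2 of them were outside the quartiles of all genes, 47% and 53.7%. In the other tissues 8 of 10 values of a gene in a tissue were outside the quartiles of that tissue. By definition the quartiles leave as many genes outside as inside. Cacna1a and Cacna1d gave several of these values, and those in spleen rested on 181 and 130 reads for Cacna1a and 144 and 116 for Cacna1d. In heart Cacna2d1 was at 75.6% and 68.8%, from 266 and 311 reads, Cacna1a at 39% and 37.8%, Cacnb2 at 55.7% and 57.4%, and Cacna1c at 53.2% and 55.2%, where the quartiles of all genes were 45.5% and 55.7%. In kidney Cacna1d was at 55.3% and 66.1%, from 159 and 127 reads, where the quartiles were 45.9% and 55.3%. In spleen Cacna1a was at 32.6% and 26.9% and Cacna1d at 68.8% and 62.1%, where the quartiles were 46.2% and 55%. In lung Cacna1c was at 58.1% and 58.2% and Cacna1d at 51.9% and 47.3%, where the quartiles were 46.3% and 55.4%. In ESC the clones differed for Cacna1a, with 50.5% and 65.6%. These shares were not tested.

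The ESC clones also differed in the level and exon use of several of the genes. Cacna1b was at 2.01 and 0.479 TPM, Cacna2d1 at 2.38 and 0.858 TPM, and the first exon of the 97-bp pair of Cacna1a was at a PSI of 58.9% and 3.61%. The correlation of the deviations of both alleles was 0.447 in ESC, the highest of the 7 tissues.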
